A study of Homo sapiens with 102 samples.

Results

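The embryonic and fetal globin genes HBG2, HBG1, HBE1 and HBZ were read in all 102 libraries of a small drug screen in K562, a human leukaemia cell line that carries the BCR-ABL fusion. The 4 genes were found by matching the Ensembl identifiers of the count table to these symbols, and they make up 4 of its 24965 genes. They were chosen because earlier work on these data had shown high HBG2 and a difference with the drug labelled YM115. The values with and without YM115 are therefore given as a description, with no test. The cells were enclosed singly in droplets, and each droplet was given a first-listed and a second-listed solution and kept for 12 h. The solutions were DMSO (the solvent), Imatinib (which inhibits the kinase made by the BCR-ABL fusion), Trametinib (a MEK kinase inhibitor) and YM115 (as the labels spell it; the study describes the compound as a blocker of survivin expression). All 16 ordered pairs were read in 3 runs of the whole process, in a screen labelled dT and in one labelled Bio, which differed in the drug source that carried each of the 2 barcode fragments. A condition is named here by its drugs in the order of the labels, so that Imatinib_DMSO has imatinib first. Each screen also had 3 separate DMSO libraries. K562 is 1 long-cultured line, so the runs are not different donors. Unless stated, p-values measure the spread between libraries of that line, with average differences between runs taken out.

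Haemoglobin is made of alpha-type and beta-type chains, and which genes supply them changes during development. HBZ, the zeta chain, and HBE1, the epsilon chain, are used by the first red cells of the yolk sac. HBG1 and HBG2, the A-gamma and G-gamma chains, supply the beta-type chain of fetal haemoglobin and give way to HBB after birth. K562 cells are known for making embryonic and fetal globins and very little of the adult beta chain.

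On GRCh38 with the GENCODE annotation, HBG2 (ENSG00000196565) lies on the reverse strand at chr11:5253190-5505605 and HBG1 (ENSG00000213934) at chr11:5248079-5249859. HBE1 (ENSG00000213931) spans chr11:5268345-5505652 on the same strand and shares 37 exon bases with HBG2 in the annotation. HBZ (ENSG00000130656) is on the forward strand at chr16:152687-154503. The coding sequences of HBG1 and HBG2 hold 444 bases each, and 442 of them are identical (99.5%), while HBE1 matches either of them at 371 of 444 bases (83.6%). Within the coding sequence, the 2 differences decide which reads can be given to 1 of the gamma genes. The rest of each transcript also holds differences and is covered by the window count below. Both coding differences are shown as windows of 59 bases, the length of the sequenced read, 5′ to 3′ on the coding strand with the differing base in capitals. The first is C227T, counted from 1 at the A of the start codon with the HBG1 base first; it lies in codon 76, in the window from position 198 to 256.
HBG1: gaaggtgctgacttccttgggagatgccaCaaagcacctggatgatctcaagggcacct
HBG2: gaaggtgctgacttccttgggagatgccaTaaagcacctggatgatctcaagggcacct
The second is C410G in codon 137, in the window from position 381 to 439.
HBG1: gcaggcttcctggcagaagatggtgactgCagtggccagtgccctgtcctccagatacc
HBG2: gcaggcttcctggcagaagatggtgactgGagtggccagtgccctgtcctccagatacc
Over whole transcripts, 347 of the 721 windows of this length in HBG1 (48.1%) also occur in HBG2, where they are 62.4% of 556 windows. HBE1 and HBZ share no such window with the others. A read that falls in a shared window can come from either gamma gene, so the gamma counts are also given as a sum, and the split between HBG1 and HBG2 is uncertain.

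The dT libraries of the 16 pairs held 127042 to 759756 counts (median 350752) over 1837 to 5110 detected genes, with 2.71 to 7.33% of counts from mitochondrial genes. The 44 Bio libraries used in the fits held 81806 to 780143 counts (median 238673) over 1030 to 3849 genes, with 2.38 to 6.87% mitochondrial. The other 4 Bio libraries, DMSO_Trametinib run 1 and all 3 of Imatinib_Imatinib, had fewer than 1000 detected genes and entered no fit, so imatinib from both sources has no fitted Bio value. The erythroid factors GATA1 and TAL1 had a count in 38 and 29 of 48 dT libraries and in 24 and 13 of 44 Bio libraries. Markers of granulocytes and monocytes, of lymphoid cells and of megakaryocytes were summed as lists, of which 5 of 6, 5 of 5 and 1 of 6 genes are in the table. Each sum had a median of 0 CPM with and without each drug, and its highest library reached 294 CPM in dT and 349 in Bio for the first list, 12.9 and 191 for the second and 10.7 and 6.79 for the third. LYZ, MPO and ELANE, the granule and lysozyme genes of the first list, had between 0 and 4 counts in each screen. The highest sums of that list, 294 and 349 CPM, therefore came from the rest of its genes.

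HBG2 was the most abundant gene of the dT screen and the third of the Bio screen by mean CPM, which is a gene's counts scaled to the same total in every library. It had 38757 ± 14873 CPM in dT (SD, n = 48 libraries, range 13114 to 82860) and 27816 ± 10525 in Bio (n = 44, range 9083 to 53230). HBZ followed at 1099 ± 610 CPM in dT and 931 ± 741 in Bio, with a range of 7.87 to 2499 and of 0 to 2593. HBG1 averaged 44.1 CPM in dT and 14.0 in Bio, and HBE1 42.0 and 91.4. Divided by transcript length (614 bases for HBG2 and 755 for HBZ), the mean level of HBG2 was 43.4 times that of HBZ in dT and 36.8 times in Bio. The study made 3′ end libraries, in which counts need not scale with transcript length, so these are not ratios of molecules. The median library held 12461 HBG2 counts in dT and 6745 in Bio, for which counting error is 0.896 and 1.22%. For HBZ it is 5.43 and 7.41%. These errors cover counting only.

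HBG2 differed between runs. Its mean was 29435 ± 7779 CPM in run 1 of dT, 33411 ± 7159 in run 2 and 53424 ± 15125 in run 3 (SD, n = 16 each). In Bio it was 36000 ± 10078 in run 1 (n = 14), 20823 ± 7069 in run 2 and 27171 ± 8724 in run 3 (n = 15 each), so the run with the highest level was not the same in both screens. Once drug pair, in either order, and run were taken out, HBG2 had 1 of the smallest spreads. Its residual SD was 0.23 on the log2 CPM scale in dT, the 7th smallest of 2187 genes whose median was 2.06, and 0.35 in Bio, the 4th smallest of 924 whose median was 2.10. The genes compared needed a count in only 50% of libraries, and sparse counts spread more on this scale. HBG2 was chosen for its high level and was not compared with genes of similar level, so nothing is read from its rank. HBZ varied more, with residual SDs of 1.03 and 2.24.

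In the dT screen the conditions stood in the following order of mean HBG2. YM115_YM115 was highest at 55689 ± 23638 CPM (SD, n = 3), with 39853, 44355 and 82860 in runs 1 to 3. Imatinib_YM115 had 54385 ± 20541, YM115_Imatinib 46602 ± 10134, DMSO_YM115 46202 ± 19974, Trametinib_YM115 43596 ± 23144 and YM115_Trametinib 43191 ± 12777. The first condition without YM115 came next, Imatinib_Imatinib at 42474 ± 14096, just above YM115_DMSO at 41445 ± 12220. The other 8 conditions lay lower, from DMSO_Trametinib at 34069 ± 9473 through Trametinib_Imatinib (32557 ± 6908), DMSO_DMSO (31785 ± 5238), Imatinib_DMSO (31572 ± 11034), Imatinib_Trametinib (30865 ± 10591), Trametinib_Trametinib (30067 ± 7631) and DMSO_Imatinib (29847 ± 16739) to Trametinib_DMSO at 25760 ± 6630. The 3 DMSO_DMSO libraries had 29704, 27907 and 37743 CPM. All 15 pairs of neighbours in this order differed by at most 1 SD and overlapped.

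In the Bio screen all 7 conditions with YM115 headed the order. YM115_YM115 was again highest at 41725 ± 10865 CPM (SD, n = 3), with 49961, 29411 and 45804 in runs 1 to 3. Imatinib_YM115 had 35299 ± 17710, YM115_Imatinib 34514 ± 7654, YM115_Trametinib 33720 ± 10966, Trametinib_YM115 32658 ± 8884, DMSO_YM115 31532 ± 1844 and YM115_DMSO 29615 ± 7865. Below them stood Trametinib_Imatinib at 26736 ± 5793 and Imatinib_DMSO at 26520 ± 16424, then Imatinib_Trametinib at 23094 ± 5659, Trametinib_DMSO at 22689 ± 3583, Trametinib_Trametinib at 21189 ± 9121 and DMSO_Imatinib at 18852 ± 10071. The 2 DMSO_Trametinib libraries used had 16294 and 19522 CPM. DMSO_DMSO was lowest at 17889 ± 5232, with 23905, 14397 and 15366 in runs 1 to 3. All 14 pairs of neighbours differed by at most 1 SD and overlapped.

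**Figure D1:**
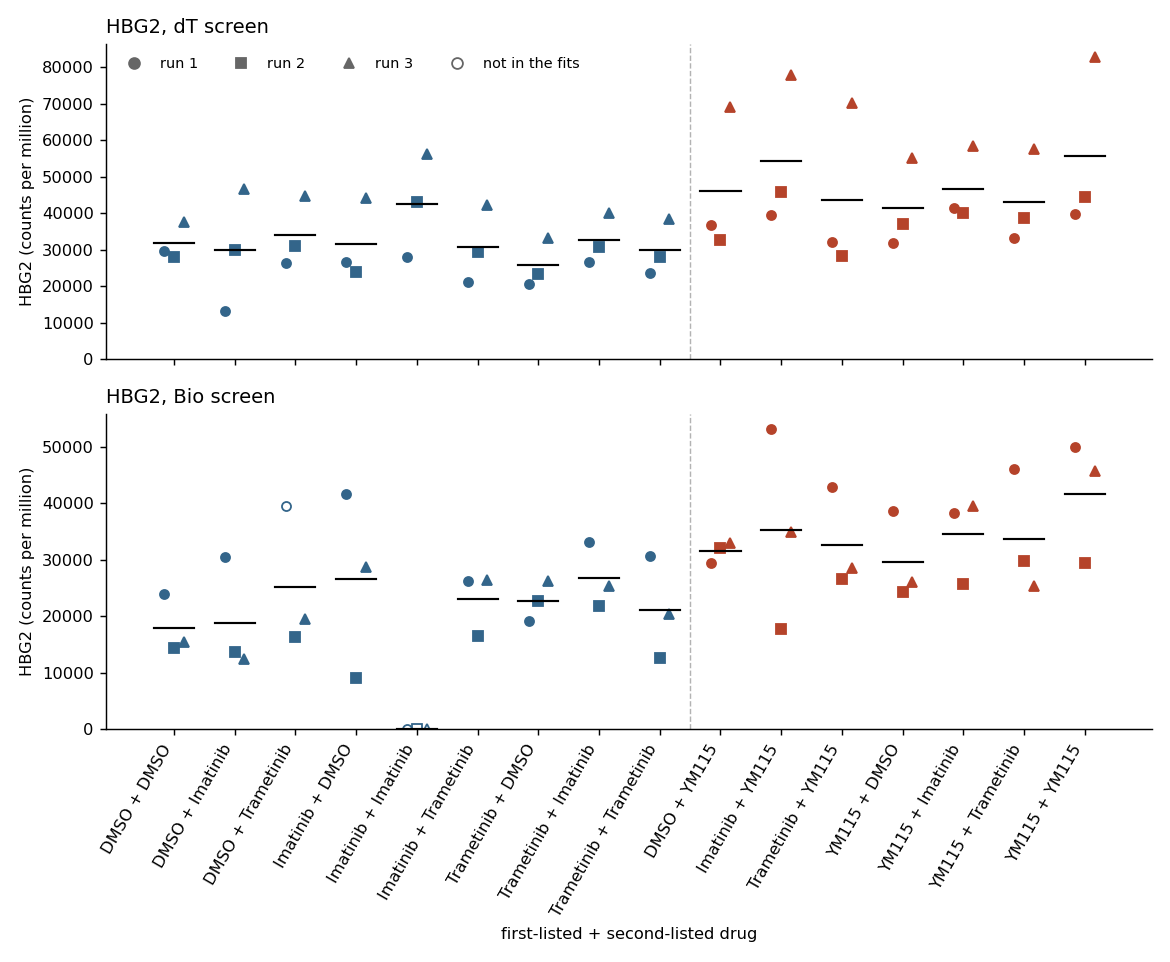
HBG2 level in CPM (vertical axis) for each ordered drug pair (horizontal axis) in the dT and Bio screens. Each point is 1 library with its shape giving the run, lines are means of the 3 libraries, open points were not used in the fits, and red marks pairs with YM115. YM115_YM115 has the highest mean in both panels, 55689 CPM in dT and 41725 in Bio, and points of neighbouring pairs overlap.

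With YM115 anywhere in the pair, HBG2 averaged 47302 ± 16160 CPM in dT (SD, n = 21, 28409 to 82860, median 40206), against 32111 ± 9705 without it (n = 27, 13114 to 56289, median 29704), a ratio of 1.47. In Bio it was 34152 ± 9422 (n = 21, 17820 to 53230, median 32045) against 22031 ± 7906 (n = 23, 9083 to 41698, median 21760), a ratio of 1.55. The groups overlapped in both screens, and 6 of 21 dT libraries and 5 of 21 Bio libraries with YM115 lay above all those without it. Within runs the dT ratios were 1.52, 1.29 and 1.58, and in run 1 the groups did not overlap. The Bio ratios were 1.45, 1.67 and 1.53, with overlap in every run. All 21 libraries with YM115 were above DMSO_DMSO of their own run in dT, and all 21 in Bio. Of the libraries without it 13 of 24 were above it in dT and 16 of 24 in Bio, a count that includes the 4 Bio libraries left out of the fits. All libraries of a run were set against the same DMSO_DMSO library, so these comparisons are not independent. How many of all genes show such counts, or no overlap in run 1 of dT, was not worked out.

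Fitted across all genes with the run as a block, the YM115 difference of HBG2 was 0.58 on the log2 scale (SE 0.08) in dT and 0.75 (SE 0.12) in Bio. These values chose the gene, so no p is given. Across all tested genes 2.62% (dT) and 2.74% (Bio) passed an edgeR adjusted p under 0.05 for YM115, and nothing is read from that for the members. The scaling matters here. With the edgeR factors the median difference over all genes tested was 0.21 in dT and 0.53 in Bio, and with DESeq2 size factors it was 0.02 and 0.22. HBG2 itself then stood at 0.37 in dT and 0.42 in Bio. Relative to the median of all genes tested, the HBG2 difference was 0.36 in dT and 0.22 in Bio with the edgeR factors, and 0.355 and 0.19 with those of DESeq2. With only the solvent and single-drug pairs it was 0.59 in dT and 1.25 in Bio, below medians of 1.29 and 2.83 over all genes. The mitochondrial share of counts was lower with YM115, at 3.84 ± 0.553% against 5.14 ± 0.869% in dT and at 4.42 ± 1.05% against 4.95 ± 1.31% in Bio. With that share as a further term, the difference in log2 CPM changed from 0.55 (SE 0.08) to 0.34 (SE 0.13) in dT and from 0.74 (SE 0.12) to 0.66 (SE 0.12) in Bio. Total counts were higher on average with YM115, at 380566 ± 134222 against 313709 ± 97472 in dT. In Bio they were 272036 ± 100304 against 243809 ± 158821. Cell number and RNA per cell cannot be told apart in such pooled libraries.

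**Figure D2:**
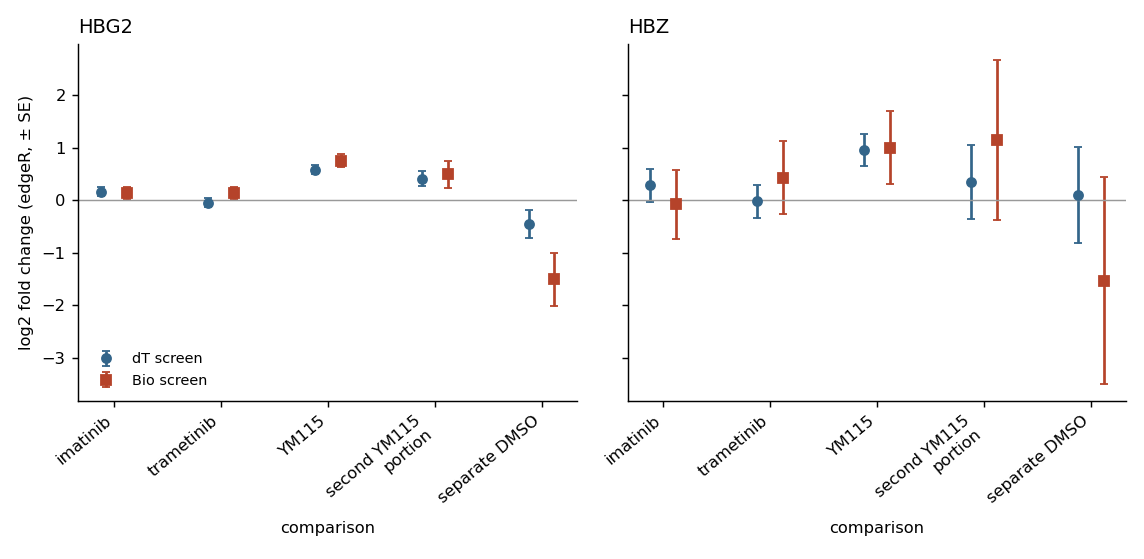
Fitted differences of HBG2 and HBZ on the log2 scale, as edgeR estimates ± SE, for imatinib, trametinib, YM115, the second YM115 portion and the separate DMSO libraries; dT is drawn as blue circles and Bio as red squares. The YM115 value of HBG2 is 0.58 in dT and 0.75 in Bio, and the imatinib and trametinib values of HBG2 lie between -0.04 and 0.16.

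Imatinib and trametinib played no part in the choice of the genes, so their differences were tested. None of the members tested passed for either drug in either screen (4 in dT and 3 in Bio), where 2.88% (dT) and 2.34% (Bio) of all genes tested passed for imatinib, and 1.37 and 1.94% for trametinib. HBG2 differed with imatinib by 0.16 (SE 0.08, edgeR adjusted p = 0.379) on the log2 scale in dT and by 0.13 (SE 0.12, adjusted p = 0.646) in Bio. With trametinib it differed by -0.04 (SE 0.08, adjusted p = 0.927) in dT and by 0.14 (SE 0.12, adjusted p = 0.748) in Bio. The summed gamma counts gave 0.16 and 0.14 for imatinib and -0.04 and 0.14 for trametinib. HBZ differed with imatinib by 0.28 (SE 0.32, adjusted p = 0.830) in dT and by -0.08 (SE 0.65, adjusted p = 0.986) in Bio, and with trametinib by -0.02 (SE 0.32, adjusted p = 0.992) and 0.43 (SE 0.70, adjusted p = 0.881). The SEs of HBZ leave room for changes larger than the YM115 value of HBG2. A permutation within runs of the residuals left by the other drugs and the run, done for 20 member and drug combinations, gave 0.119 as the lowest p.

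HBZ was also higher with YM115 in dT, and in Bio the direction depended on the libraries used. Its level there was 1484 ± 521 CPM with YM115 (SD, n = 21, 841 to 2499, median 1305) and 800 ± 502 without it (n = 27, 7.87 to 1954, median 711). In Bio it was 1182 ± 797 (n = 21, 0 to 2504) and 701 ± 616 (n = 23, 0 to 2593). The groups overlapped in both screens. The fitted difference was 0.96 (SE 0.31) in dT and 1.00 (SE 0.70) in Bio on the log2 scale, again a description, beside medians of 0.21 and 0.53 over all genes tested. The Bio value was -0.47 with solvent and single-drug pairs only, 1.84 without DMSO_DMSO and 1.83 in log2 CPM with the mitochondrial share as a term. All 21 dT libraries with YM115 exceeded DMSO_DMSO of their run, and so did 17 of 24 without it. In Bio 10 of 21 with YM115 and 10 of 24 without it did so, and these 24 include the 4 libraries left out of the fits. DMSO_DMSO of Bio held 0 CPM in run 1 and 2593 in run 2, the highest value of the screen. The Bio counts thus depend on that control, and nothing is read from them. Here too the libraries of a run share the same DMSO_DMSO library, and the share of all genes was not worked out.

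YM115_Imatinib headed the dT order of HBZ, at 2499, 1928 and 1858 CPM in runs 1 to 3, and Imatinib_Trametinib closed it, at 159, 883 and 309. DMSO_DMSO had 460, 734 and 419 CPM in dT. In Bio the same control had 0, 2593 and 685 CPM, the widest spread of any condition there, and Imatinib_YM115 was highest at 1662, 2504 and 1493. Neighbours in both orders overlapped. HBZ had no count in 3 of the 44 Bio libraries and 1 count in 1 dT library.

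**Figure D3:**
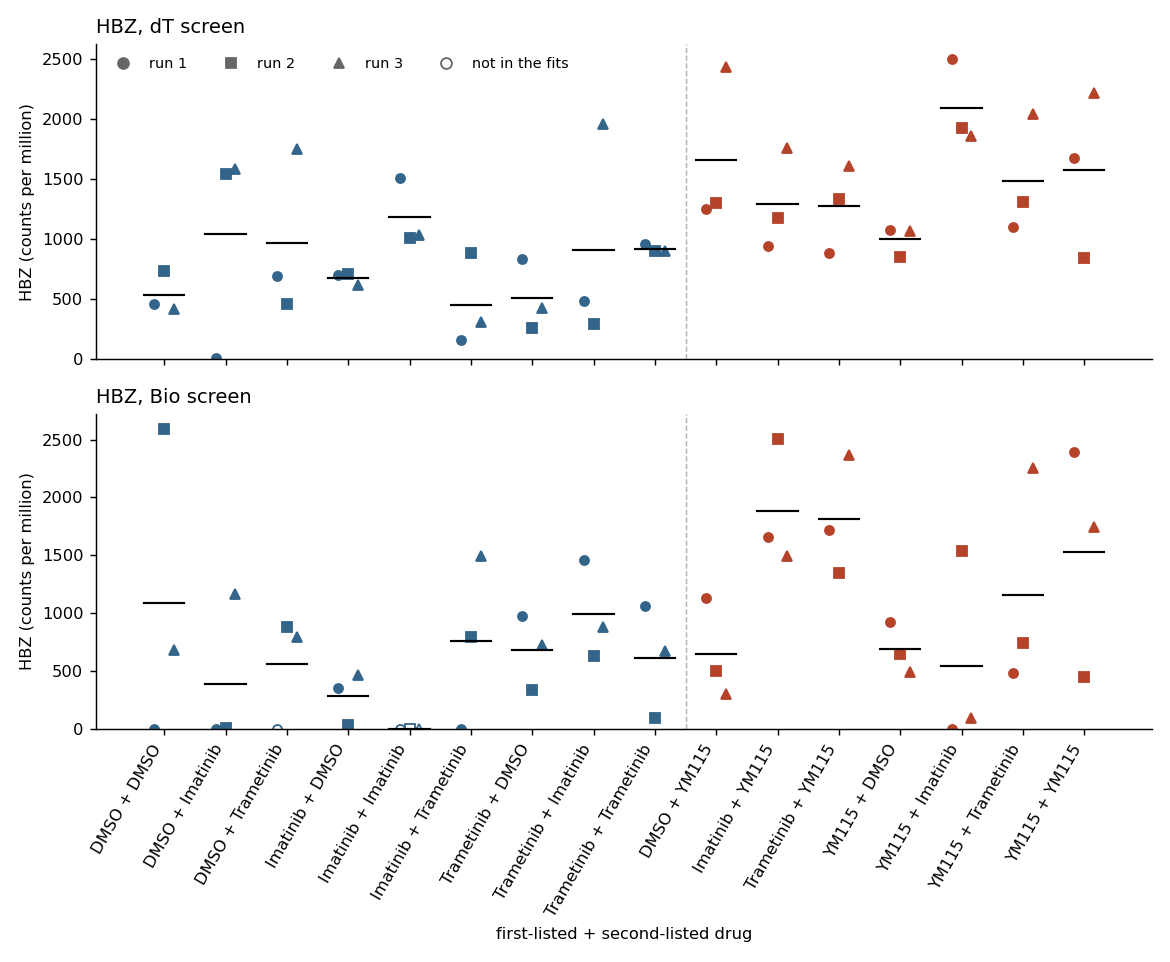
HBZ level in CPM (vertical axis) for each ordered drug pair (horizontal axis) in the dT and Bio screens, drawn as for HBG2. The pairs with YM115 sit between 841 and 2499 CPM in dT, while the Bio points spread from 0 to 2593 CPM.

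Each pair of different drugs was made in both orders, which asks whether the source a drug came from changes the readout. HBG2 ranges overlapped between the orders for all 6 pairs in both screens. The joint edgeR test of order gave HBG2 an adjusted p of 0.828 in dT and 0.384 in Bio, where 10.7 and 21.1% of all genes tested passed. For HBZ the adjusted p was 0.710 and 0.850. The HBZ ranges overlapped for all 6 pairs in Bio, and in dT they did not overlap for 2 of 6 pairs. DMSO_YM115 had 1661 ± 670 CPM against 1000 ± 130 for YM115_DMSO, whereas Imatinib_YM115 had 1294 ± 420 against 2095 ± 352 for YM115_Imatinib. YM115 was listed second in the higher order of the first pair and first in that of the second. With so few libraries per order, ranges can fail to overlap by chance. The share of all genes with such gaps was not worked out, so nothing is read from the 2 pairs. HBE1 had adjusted p = 0.971 in dT and 0.0558 in Bio, and HBG1 had 0.288 in dT.

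The test of a departure from added drug effects passed for none of the members, against 9.77% of genes tested in dT and 14% in Bio. Its edgeR adjusted p for HBG2 was 0.926 in dT and 0.300 in Bio, and for HBZ 0.730 and 0.779. HBE1 had 0.807 and 0.245, and HBG1 had 0.751 in dT.

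YM115_YM115 holds 2 portions of the drug and was set against YM115 with DMSO, in both orders, which holds 1. HBG2 was higher by 0.41 on the log2 scale (SE 0.14, edgeR adjusted p = 0.406) in dT and by 0.50 (SE 0.26, adjusted p = 0.361) in Bio. Across all genes 0.016% passed in dT, which is 1 of 6263, and 0 of 3429 in Bio. YM115_YM115 had the highest HBG2 of these conditions in 3 of 3 runs in dT and in 2 of 3 in Bio. The exact permutation within runs gave a mean difference of 0.33 in log2 CPM (two-sided p = 0.0741) in dT and of 0.43 (p = 0.111) in Bio, from 27 arrangements whose smallest p is 0.037. For HBZ the exact p was 0.593 in dT and 0.111 in Bio. A second portion thus gave no difference that passed for either gene. The same YM115 libraries entered the difference that chose the genes, so these p-values are no independent test.

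The drug differences were compared between the screens in 1 fit. The YM115 value of HBG2 was higher in Bio than in dT by 0.27 (SE 0.15, edgeR adjusted p = 0.310), and that of HBZ by 0.11 (SE 0.73, adjusted p = 0.976). YM115 values entered the choice of the genes, so the YM115 and joint tests of this fit are not independent of that choice. The joint test of all 3 drugs gave an adjusted p of 0.252 for HBG2, 0.893 for HBZ and 0.591 for HBE1. HBG1 passed at 0.0128, where 26.3% of all genes tested passed. Drug by drug, 1 member passed for imatinib (HBG1, adjusted p = 0.0111), none for trametinib and none for YM115, where 5.84, 4.59 and 6.59% of all genes passed. HBG1 had too few counts to be tested in Bio alone, where all 26 libraries without imatinib held 0. No difference between the screens is read from its passing. The joint adjusted p of HBG1 was 0.105 without run 1, 0.033 without run 2, 0.275 without run 3 and 1 with single drugs only, and the gene rests on few libraries, which are described next.

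HBG1 and HBE1 came in bursts. HBG1 had a count in 17 of 48 dT libraries, and 12 libraries with at least 10 counts held 97.3% of its 771 counts. The highest were Imatinib_Imatinib run 1 with 137 counts, Trametinib_DMSO run 1 with 110 and YM115_Trametinib run 3 with 79. In Bio it had counts in 3 of 44 libraries, YM115_Imatinib run 1 (14 counts) and run 3 (67 counts) and Trametinib_Imatinib run 2 (32 counts), all with imatinib in the pair. HBE1 had a count in 42 of 48 dT libraries, and 10 of them with at least 10 counts held 87.8% of its 648 counts, led by DMSO_DMSO run 3 with 102. In Bio it had a count in 31 of 44, and 6 libraries held 94.1% of its 723 counts, led by YM115_Imatinib run 3 with 279. At the median depth a count of 0 allows up to 8.55 CPM in dT and 12.6 in Bio, taken as 3 counts. HBG1 and HBE1 reached 10 counts together in 2 dT libraries and 1 Bio library.

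**Figure D4:**
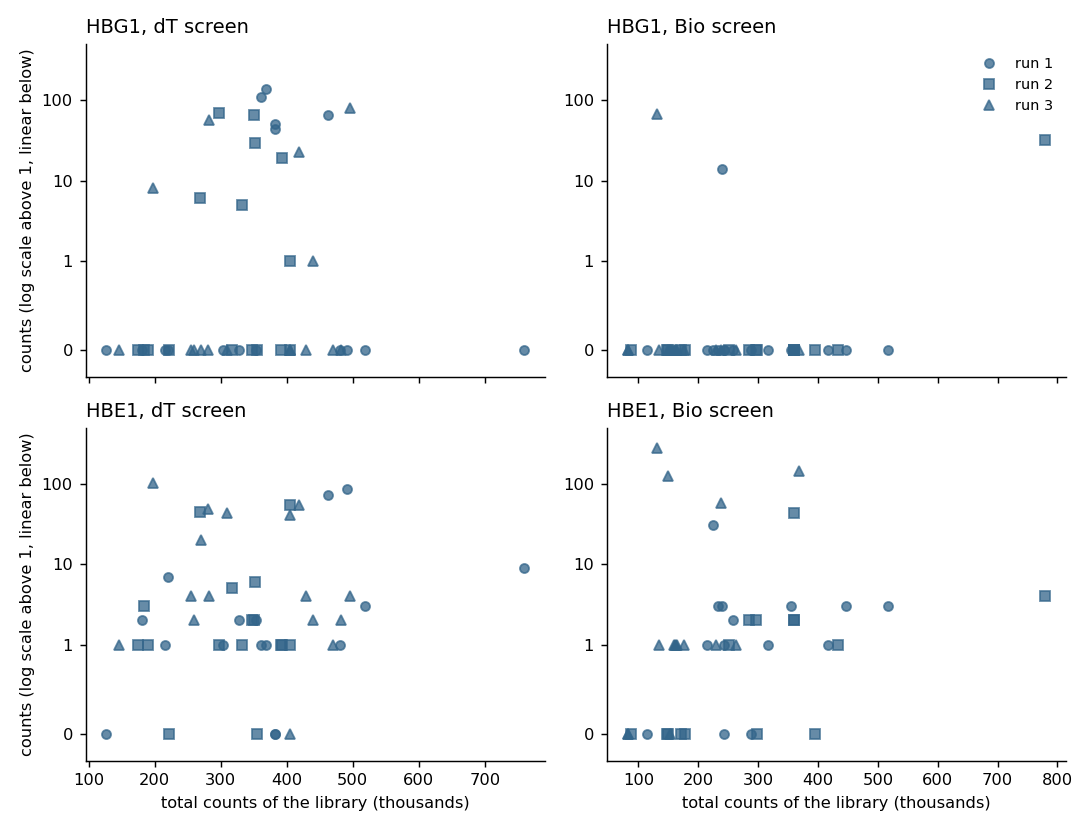
Counts of HBG1 and HBE1 in each library (vertical axis, logarithmic above 1 count and linear below) against the library's total counts (horizontal axis) in both screens. Most points lie below 10 counts at all depths, and 12 HBG1 libraries and 10 HBE1 libraries reach 10 or more in dT, as do 3 and 6 in Bio.

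Detection of HBG1 in dT was 7 of 21 libraries with YM115 and 10 of 27 without it, and that of HBE1 was 18 of 21 and 24 of 27. In Bio YM115 libraries held HBE1 counts in 19 of 21 cases, and those without YM115 in 12 of 23. With imatinib HBG1 was detected in 8 of 21 dT libraries against 9 of 27, and with trametinib in 10 of 21 against 7 of 27. The edgeR adjusted p of HBG1 in dT was 0.951 for imatinib and 0.939 for trametinib. For HBE1 the adjusted p was 0.877 (dT) and 0.908 (Bio) for imatinib, and 0.946 and 0.752 for trametinib. No fold change is given for either gene, because a few libraries hold most of its counts.

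HBG1 took a small share of the gamma counts. In dT it was 0.180 ± 0.367% with imatinib (SD, n = 21) and 0.119 ± 0.296% without it (n = 27), and the within-run permutation p was 0.604. In Bio it was 0.0904 ± 0.304% with imatinib (n = 18) and 0 in all 26 without it, with a permutation p of 0.0348 that became 0.139 after Benjamini-Hochberg adjustment over the 4 share tests. With trametinib the adjusted p was 0.805 in dT and 0.994 in Bio. Because of shared reads, the share is that of counts assigned to HBG1, not of its transcripts.

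The separate DMSO libraries differed from the pairs in more than the globins. They had 7410 to 10361 detected genes in dT and 5501 to 7058 in Bio, and mitochondrial shares of 10.2, 31.0 and 36.9% in dT and 5.10, 25.0 and 28.1% in Bio for runs 1 to 3. Runs 2 and 3 of each screen thus exceeded the limit of 15% set for the pairs and were kept in this comparison. Their HBG2 level was 17945, 3503 and 32777 CPM in dT and 16703, 3693 and 2250 in Bio. In both screens the highest of the 3 lay within the range of DMSO_DMSO and the other two lay below it. The fitted difference to DMSO_DMSO was -0.45 (SE 0.27, edgeR adjusted p = 0.317) in dT and -1.51 (SE 0.51, adjusted p = 0.327) in Bio. With DESeq2 size factors it was -1.60 (adjusted p = 0.00111) and -3.05 (adjusted p = 1.92e-06), and without run 3 of dT the edgeR value was -1.15 (adjusted p = 1.22e-05). With the edgeR factors the median difference over all genes tested was 3.39 in dT and 5.34 in Bio, and with DESeq2 size factors it was 2.32 and 4.06, so HBG2 lay below that median under both scalings, while its own adjusted p depended on the scaling. Of all genes, 0.116% passed in dT and 0.0487% in Bio.

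HBZ in these libraries was 752, 97.4 and 492 CPM in dT and 1119, 157 and 181 in Bio. It differed from DMSO_DMSO by 0.11 (adjusted p = 0.976) and -1.54 (adjusted p = 0.561). HBE1 had 49, 0 and 133 counts in dT and 5, 1 and 0 in Bio, and HBG1 had 8, 0 and 32 counts and 1, 0 and 0. In the pairs, Bio libraries with a higher mitochondrial share had lower HBG2 when the 3 runs were pooled. Spearman's rho across its libraries was -0.782 with YM115 (n = 21) and -0.582 without it (n = 23). In dT the values were -0.043 and 0.245. These are descriptions over libraries that share runs and drugs. Both quantities differed between the Bio runs. Mean HBG2 was 36000, 20823 and 27171 CPM in runs 1 to 3, and DMSO_DMSO had mitochondrial shares of 3.11, 6.61 and 6.30%. No correlation within runs was worked out.

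**Figure D5:**
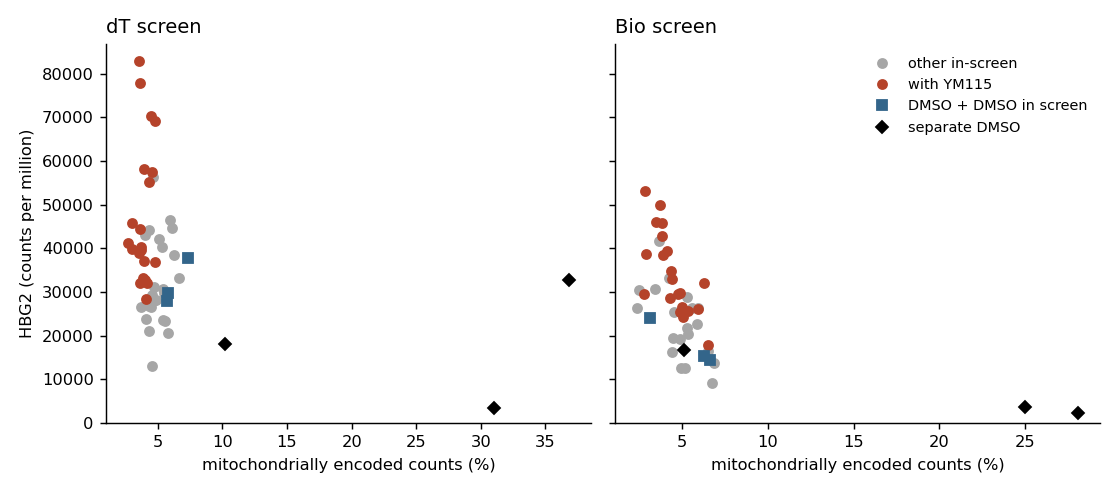
HBG2 level in CPM (vertical axis) against the mitochondrial percent of counts (horizontal axis) for the libraries of the pairs and the separate DMSO libraries of each screen. The separate libraries reach 36.9% mitochondrial counts in dT and 28.1% in Bio, where the pairs end at 7.33 and 6.87%.

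The 3 Bio libraries of Imatinib_Imatinib held almost no globin. HBG2 had 1, 0 and 0 counts among 30359, 25110 and 17882 counts, so that the exact 95% upper limit was 184, 147 and 206 CPM. HBZ, HBG1 and HBE1 had none, with 3 counts corresponding to 98.8, 119 and 168 CPM. Only 472, 453 and 438 genes were detected, led by the ribosomal protein genes RPS6 with 10.2, 17.4 and 17.3% of counts and RPL10 with 5.73, 5.52 and 6.20%. Imatinib_Imatinib of dT held 28112, 43020 and 56289 CPM of HBG2. The cause of the low counts in these 3 Bio libraries was not tested, and the counts alone do not show it.

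Adult and other globins were far lower than HBG2. HBB, the adult beta chain, had 12 counts in 11 of 48 dT libraries and 6 counts in 2 of 44 Bio libraries. HBA1 and HBA2, the adult alpha chains, were detected in 16 and 17 dT libraries and in 10 and 3 in Bio. HBD, the delta chain, averaged 288 CPM in dT (a count in 40 libraries) and 127 in Bio (12 libraries), and HBQ1, the theta chain, 336 (43 libraries) and 163 (20 libraries). HBM was detected in 2 dT libraries and in none of Bio. Of the 8 genes, 3 could be tested in dT and 2 in Bio, and none passed for imatinib, trametinib or YM115.

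Genes that control globin switching and erythroid identity were followed as a list of 34, of which 20 were tested in dT and 16 in Bio. The highest were CHD4, a subunit of the NuRD repressor complex, at 497 and 416 CPM, ATF4, a stress-response factor, at 463 and 515, and KDM1A, a histone demethylase, at 261 and 298. BCL11A, the main repressor of the gamma genes in adult cells, had no count in dT. None passed for trametinib. For imatinib 1 fell in dT, where 2.88% of all genes tested passed. It was HDAC2, a histone deacetylase, with a log2 difference of -5.61 (SE 1.56, edgeR adjusted p = 0.037), from counts in 16 of 48 libraries. For YM115 1 rose in Bio, where 2.74% of all genes tested passed. It was DNMT1, the maintenance DNA methyltransferase, by 5.17 (SE 1.43, adjusted p = 0.032), from 12 of 44 libraries. Both are sparse, and the count test was too lenient for such genes on simulated data. The list's median YM115 difference was 0.11 in dT and 1.25 in Bio, beside 0.21 and 0.53 over all genes tested, and its median imatinib difference was 0.49 and 0.78, beside 0.07 and 0.12.

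A second list held 20 genes of haem synthesis and red cell proteins, of which 19 are in the table, with CA1 not analysed here. The highest were BLVRB, a biliverdin reductase, at 2472 CPM in dT and 1630 in Bio, UROD, a haem synthesis enzyme, at 1079 and 750, and GYPC, a red cell glycoprotein, at 843 and 804. Of 10 tested in dT and 6 in Bio, 1 passed, for YM115 in Bio, where 2.74% of all genes tested did. ALAS2, the erythroid enzyme that starts haem synthesis, fell with YM115 in Bio, with a log2 difference of -6.06 (SE 1.69, edgeR adjusted p = 0.034), from counts in 12 of 44 libraries, so the test is too lenient here as well. The list's median YM115 difference was 0.07 in dT and -0.61 in Bio.

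The genes whose level most followed HBG2 across libraries differed between the screens. In dT the highest Spearman correlations over 48 libraries and 2187 genes were those of ENSG00000250321 (0.772), RPL31P4 (0.738), RPL31P2 (0.711), RPS15AP1 (0.703) and RPL31 (0.691), the gene of a ribosomal protein whose processed pseudogenes share its reads. The same genes had correlations of -0.057, 0.172, 0.009, -0.001 and -0.058 in Bio. In Bio, over 44 libraries and 924 genes, BLVRB (0.603), NDUFA11 (0.489), AURKAIP1 (0.435) and PFN1 (0.431) came first, with -0.206, 0.193, -0.060 and -0.048 in dT. HBZ was 11th in dT (0.626) and 149th in Bio (0.111). The libraries share runs and drugs, and no p is given.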

How the data were processed

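RNA of K562 cells was read with combinatorial barcodes in 102 libraries, 51 in each screen. The authors aligned the reads with STAR 2.4.2a to GRCh38, as the submitters' processing notes say, and deposited whole-number read counts per gene, with no normalization. The counter and its strand setting are not given in the sources used here. Of 24965 genes, 24539 had a symbol, and no row was left out as a non-gene.

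Libraries of the drug pairs with at least 1000 detected genes and at most 15% mitochondrial counts were kept (48 dT and 44 Bio), the mitochondrial limit being that of the study. The 3 separate DMSO libraries of each screen entered their comparison whatever their mitochondrial share. Each screen was fitted by edgeR 4.0.16 (R 4.3.3; TMM factors, filterByExpr, quasi-likelihood test) with drugs as terms and the run as a block. Benjamini-Hochberg adjusted p-values are over all genes tested, and the threshold was 0.05. The members, the gene lists and the tests were chosen with earlier results of these data known. Named genes are the 4 members, list genes that passed or were highest, and the 5 genes closest to HBG2 by Spearman correlation in each screen, of which 1 is not reported here. HBG1 and HBG2 reads were also summed.

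The run block rests on the replicate numbers of the labels, since the study ran the whole process 3 times. Residuals of same-numbered libraries correlated at 0.0244 in dT and 0.027 in Bio on average, against -0.0122 and -0.0135 for different numbers. Of 102 replicate pairs 0 were identical. The script was tested on simulated data, in which the count test was well calibrated for genes detected in nearly all libraries and too lenient for genes at 0 in most. Permutations within runs used 100000 resamples. Those of log2 CPM, the exact test of the second YM115 portion and the mitochondrial term were added after seeing the data. The alternatives were DESeq2 1.42.0 (test and size factors), other filters, no block, leaving out each run, mitochondrial counts left out, depth as a covariate and solvent with single drugs only. Share and permutation values used Python 3.11.15 with SciPy 1.17.1.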

Additional observations from a re-analysis of the deposited data

Results flagged for a closer look

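Dixon's test on each member within each unordered drug pair marked 10 of 48 groups of 5 or 6 libraries. Chance marks about 1 in 20 groups of normally spread values, which does not hold for genes at 0 in most libraries. For HBZ the library far from its group was Trametinib_DMSO run 2 of Bio at 340 CPM (others 723 to 976, n = 5), Imatinib_Trametinib run 1 of Bio at 0 (others 633 to 1492), and DMSO_Imatinib run 1 of dT at 7.87 (1 count, others 616 to 1580). For HBE1 it was YM115_DMSO run 1 of Bio at 138 CPM (31 counts, others 3.97 to 7.45), Trametinib_Imatinib run 3 of Bio at 390 (144 counts, others 0 to 6.27), YM115_Imatinib run 3 of Bio at 2143 (279 counts, others 0 to 12.5) and Imatinib_YM115 run 3 of dT at 175 (49 counts, others 0 to 11.8). For HBG1 it was Imatinib_DMSO run 2 of dT at 233 CPM (69 counts), Trametinib_DMSO run 1 at 305 (110 counts) and YM115_Imatinib run 2 at 48.3 (19 counts), each with the other libraries of its pair at 0.

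HBG1 was marked for a difference between the screens in the imatinib term (edgeR adjusted p = 0.0111, with 5.84% of all genes tested passing), with a count in 3 of 18 Bio libraries with imatinib and 0 of 26 without it. The gene had too few counts to be tested in Bio alone, so no difference between the screens is read from this mark. The joint test of all 3 drugs, which passed at an adjusted p of 0.0128, gave 0.105 without run 1, 0.033 without run 2, 0.275 without run 3 and 1 with single drugs only.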

How the results depend on the processing

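The YM115 value of HBG2 stayed above 0 under all alternatives, from 0.34 to 0.65 in dT and from 0.42 to 1.25 in Bio. Neither imatinib nor trametinib passed for HBG2 or HBZ under any alternative, but small values changed sign. In dT the imatinib value of HBZ was -0.014 by permutation. Trametinib gave HBG2 0.025 without a filter, and gave HBZ 0.028 without a filter, 0.59 with single drugs only and -0.25 to 0.055 leaving out 1 run. In Bio imatinib gave HBZ 0.12 without a filter, 0.00030 with genes in 50% of libraries, 0.020 without mitochondrial counts, 0.55 without DMSO_DMSO and -0.21 to 0.090 leaving out 1 run. With depth as a covariate trametinib gave HBG2 -0.045 in Bio. With single drugs only, HBZ in Bio had -0.93 for trametinib and -0.47 for YM115. The screen difference of YM115 in HBZ was -2.08 with single drugs only and -0.064 to 0.35 leaving out 1 run. The HBG1 share moved from -0.027 to 0.10 percentage points for imatinib in dT and from -0.020 to 0.015 for trametinib in Bio.

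In the separate DMSO comparison HBG2 passed in dT with DESeq2 factors (-1.60) and by the DESeq2 test (-1.60, adjusted p = 0.00021), with -1.15 to -0.0014 leaving out 1 run, and in Bio with factors (-3.05) and test (-3.05, adjusted p = 0.0306). HBZ in dT was -1.07 with factors and test, -0.65 with depth, -0.086 with single drugs and -0.44 to 0.92 leaving out 1 run, and in Bio -3.09 to 1.55. The cause was not tested.

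Without the replicate block HBG2 kept its YM115 value, 0.58 in dT and 0.77 in Bio, while trametinib gave HBZ 0.019 in dT and imatinib 0.0023 in Bio. Genes passing fell without the block from 103 to 23 for YM115, 113 to 12 for imatinib and 54 to 9 for trametinib in dT, and from 48 to 12, 41 to 5 and 34 to 5 in Bio. Over all alternatives the counts ran from 4 to 503, 2 to 510 and 0 to 468 in dT and from 0 to 203, 0 to 219 and 0 to 182 in Bio. Depth limits HBG1, HBE1 and Bio HBZ.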
